A study of Homo sapiens with 10 samples.

Results

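The 10 genes described here, FHIT, WWOX, IMMP2L, MACROD2, LRP1B, DMD, DLG2, CNTNAP2, PTPRD and CSMD1, have bodies of 0.900 to 2.30 Mb, and many of them lie at common fragile sites or encode proteins of neurons and muscle. The genes were chosen by name, and every deposited poly(A) peak whose summit lay in a GENCODE 44 body or up to 600 bp past its 3′ end was counted, which gave 615 of the 178837 peaks in the list. The peaks came from poly(A) 3′-seq of IMR-32, a human neuroblastoma cell line, transduced with shRNAs against the transcriptional kinases CDK12 (sh22 and sh98) or CDK13 (sh701 and sh704) or against GFP as control, with 2 libraries for each of the 5 treatments, and all cells were selected with puromycin after lentiviral transduction. By the paper, the knockdown samples were processed in 2 batches that varied in sequence quality and depth. They were therefore downsampled at random to the size of the smallest library. The authors pooled the 10 downsampled libraries and called peaks once on GRCh38. The list thus holds no value per library, treatment or replicate and no strand. No effect of either kinase could be compared, and the depth of each library is not known from the list. Terminal peaks were present for HAND2, GATA3, DBH, TH, CHGA and STMN2, 6 of 6 genes checked as markers of sympathetic neuroblasts.

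Common fragile sites are chromosome regions that break under replication stress, and several of them coincide with the longest genes of the genome. RNA polymerase II needs many hours to cross such a body, which is nearly all intron, before the 3′ end of the transcript is cleaved downstream of a poly(A) signal (usually AATAAA or ATTAAA in DNA letters) and polyadenylated. Libraries primed with oligo(dT) read that end, but oligo(dT) can also anneal to adenines encoded inside an unspliced transcript. For this reason each peak was described by its place in the gene and by the adenines beyond its 3′ edge. In the library type used, reads start at the poly(A) junction, so the downstream edge of a peak on the strand of the gene (its sense edge) is the candidate cleavage position. A peak with at least 7 A in the 10 genomic bases past that edge is called A-rich below.

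The strongest intronic peak outside any other annotated gene, ranked by pileup (the number of pooled reads, extended to 100 bp, that covered the summit), is shown for 6 of the genes to let the base content at the edge be seen. Each sequence runs 5′ to 3′ on the strand of the gene from 50 bases before to 30 bases after the sense edge, on GRCh38, with the 10 bases past the edge in capitals.
FHIT, chr3:60418461-60418540, minus strand, intron 5, pileup 15: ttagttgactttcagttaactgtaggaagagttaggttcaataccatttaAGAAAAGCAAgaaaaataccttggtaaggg
IMMP2L, chr7:111556665-111556744, minus strand, intron 1, pileup 26: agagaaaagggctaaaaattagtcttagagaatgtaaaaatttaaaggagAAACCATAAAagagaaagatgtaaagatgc
PTPRD, chr9:8808444-8808523, minus strand, intron 11, pileup 17: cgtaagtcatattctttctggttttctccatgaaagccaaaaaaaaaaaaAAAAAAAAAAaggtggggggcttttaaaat
CNTNAP2, chr7:146309795-146309874, plus strand, intron 1, pileup 19: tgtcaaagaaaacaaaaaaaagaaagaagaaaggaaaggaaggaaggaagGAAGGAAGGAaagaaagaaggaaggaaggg
DMD, chrX:33041649-33041728, minus strand, intron 1, pileup 31: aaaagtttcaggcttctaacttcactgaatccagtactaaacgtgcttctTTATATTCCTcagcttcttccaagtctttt
DLG2, chr11:85483945-85484024, minus strand, intron 3, pileup 26: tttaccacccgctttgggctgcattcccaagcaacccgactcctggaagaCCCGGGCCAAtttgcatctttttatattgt
Of these 6, FHIT, IMMP2L and PTPRD had at least 7 A in the capitals. CNTNAP2 had 5, and DMD and DLG2 had 2 each. In the 4 genes not shown, the 10 bases past the edge of the strongest such peak held 10 A in WWOX, 9 in MACROD2, 9 in CSMD1 and 2 in LRP1B, so that 6 of the 10 genes had at least 7. The LRP1B peak had 10 A of 10 past its other edge, read on the opposite strand.

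For DMD the opposite strand at the other edge of the same peak is shown, because AATAAA lay there. The capitals mark an AATAAA signal 15 to 35 bases before that edge.
DMD, chrX:33041851-33041930, plus strand: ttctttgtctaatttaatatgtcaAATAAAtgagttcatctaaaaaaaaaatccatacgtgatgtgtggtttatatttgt
The DMD peak lay at the end of TBCAP1, a processed pseudogene within intron 1 of DMD on the opposite strand. An encoded run of A follows the AATAAA and reaches the edge. The count past this edge, 3 A of 10, leaves out most of that run. Whether the reads came from priming at the run, from TBCAP1 or from elsewhere was not tested.

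The number of peaks per Mb differed greatly among the 10 genes. IMMP2L, a subunit of the mitochondrial inner membrane peptidase, had 121 peaks in 0.900 Mb, or 134 per Mb (95% exact Poisson interval 112 to 161). WWOX, a WW-domain oxidoreductase and tumour suppressor at FRA16D, had 136 peaks and 122 per Mb (102 to 145). These intervals overlapped each other and lay above those of the other 8 genes. FHIT, a diadenosine triphosphate hydrolase and tumour suppressor at FRA3B, had 87 peaks and 57.8 per Mb (46.3 to 71.3). CNTNAP2, which encodes the axonal neurexin-family protein Caspr2, had 88 peaks and 38.2 per Mb (30.6 to 47.0). MACROD2, a hydrolase of mono-ADP-ribose, had 78 peaks and 37.9 per Mb (29.96 to 47.3), which could not be separated from CNTNAP2. PTPRD, a receptor tyrosine phosphatase of synapses, had 60 peaks and 26.1 per Mb (19.9 to 33.6).

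The remaining 4 genes were nearly empty. DLG2, the postsynaptic scaffold PSD-93, had 20 peaks in 2.17 Mb and 9.20 per Mb (5.62 to 14.2). LRP1B, a large lipoprotein receptor-related protein, had 11 peaks and 5.79 per Mb (2.89 to 10.4). DMD, which encodes dystrophin, had 10 peaks and 4.46 per Mb (2.14 to 8.20). CSMD1, a membrane protein with complement-control domains, had 4 peaks in 2.06 Mb and 1.94 per Mb (0.529 to 4.97). The intervals of neighbours in this order overlapped from DLG2 to CSMD1, whereas those of PTPRD and DLG2 did not. The 6 genes with at least 60 peaks together had 570 peaks, 92.7% of the 615 (95% Wilson interval 90.3% to 94.5%). All intervals given here cover counting error only, since peaks of a gene come from the same pooled libraries and are not replicates.

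The densities were set beside those of other long genes. Among 323 protein-coding genes of at least 500 kb, the median was 61.5 peaks per Mb, with 25th and 75th percentiles of 9.16 and 124, and 18 genes had no peak. IMMP2L ranked 70 and WWOX ranked 84 from the top, FHIT 167, CNTNAP2 191, MACROD2 192, PTPRD 208, DLG2 241, LRP1B 253, DMD 261 and CSMD1 284. Over the summed 18.6 Mb of the 10 bodies there were 33.1 peaks per Mb (30.6 to 35.9), against 70.5 per Mb (69.4 to 71.5) over the other 313 genes. Of a list of 22 other genes at fragile sites or of great length, 16 had more peaks per Mb than the median of the 323 genes, and 2 of the 10 genes did. The list holds 2 genes of under 500 kb, DISC1 and THSD7A, and without them it was 14 of 20. The densest of the 22 were RORA, a nuclear receptor, with 175 per Mb, SMYD3, a lysine methyltransferase, with 172, and AUTS2 with 168. Among the 3 sparsest were CTNNA3, an alpha-catenin, with 1 peak and 0.540 per Mb, and DCC, the netrin receptor, with 4.18. The interval of DCC (1.36 to 9.76) overlapped those of DMD, CSMD1, LRP1B and DLG2.

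Almost all of the peaks were intronic. Of the 615 peaks, 593 lay in introns (96.4%, 94.6% to 97.6%), 6 in exons (0.976%) and 16 at annotated transcript ends (2.60%, 1.61% to 4.18%), a transcript end being taken as 200 bp before to 600 bp after the last base of any transcript. In the other 313 long genes, 93.3% of 17781 assignments of a peak to a gene were intronic and 3.97% were at transcript ends. The median pileup was 7 for intronic peaks, with a range of 4 to 61, and 9 for peaks at transcript ends, with a range of 5 to 19. In the other long genes these medians were 7 and 12.

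**Figure D1:**
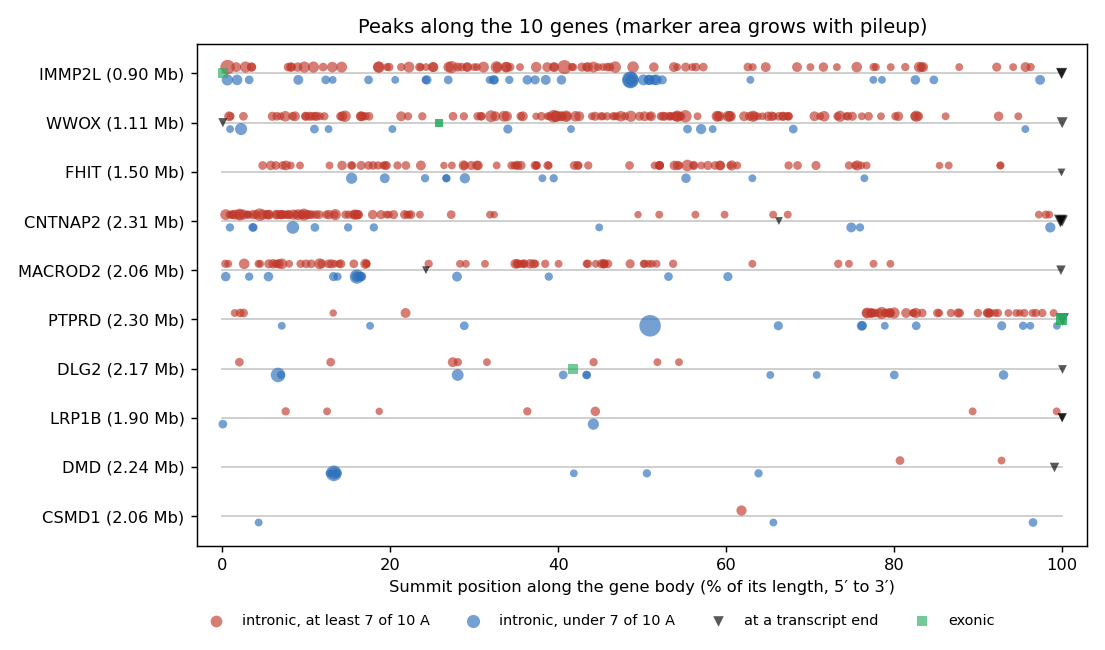
Peaks of each gene by the position of the summit along the gene body, in percent of its length from the 5′ to the 3′ end, with genes ordered by peaks per Mb. Red and blue circles are intronic peaks with at least 7 and with fewer than 7 A in the 10 bases past the sense edge, black triangles are peaks at transcript ends, green squares are exonic peaks, and the area grows with the pileup. Peaks crowd into the first 25% of CNTNAP2 and the last 25% of PTPRD, and CSMD1 has none at its end.

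A peak at an annotated transcript end in the last 1% of the body was found in 9 of the 10 genes, CSMD1 being without one, and in 64.5% (59.1% to 69.6%) of the other 313 long genes. With transcript ends anywhere in the body counted, it was again 9 of 10, against 74.8% (69.7% to 79.3%). No interval was computed for the 10 genes, so these counts do not show that they differed from the other long genes. The highest pileup at a transcript end was 19 in CNTNAP2 and PTPRD, 14 in IMMP2L, 13 in WWOX, 9 in DMD, MACROD2 and LRP1B, 7 in DLG2 and 5 in FHIT. The WWOX peak, 57 bp before the end of the body, also fell within the window at the end of ENSG00000261722, so its source cannot be told apart between the genes. The FHIT peak lay within CFAP20DC-DT, a lncRNA on the opposite strand. Of the 16 peaks at transcript ends, 11 had AATAAA or ATTAAA between 15 and 35 bases before the edge (68.8%, 44.4% to 85.8%) and 1 was A-rich, that of MACROD2 with 9 A of 10 and no such signal. Other peaks at transcript ends lay inside the bodies, where short annotated transcripts stop, at 0.788 kb from the start of WWOX, 499 kb into MACROD2 and 1527 kb into CNTNAP2, with pileups of 8, 5 and 5.

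Terminal sites are shown as 30 bases on the strand of the gene, with the signal in capitals, for comparison with the intronic sequences.
WWOX, chr16:79212641-79212670, plus strand, pileup 13: ttAATAAAagaacatgcttgaatatcatca
IMMP2L, chr7:110663043-110663072, minus strand, pileup 14: aaAATAAAacaatgatttgctaaggtcctg
PTPRD, chr9:8314241-8314270, minus strand, pileup 19: ctAATAAAaatgtcagtgttatgcagccct
DMD, chrX:31119223-31119252, minus strand, pileup 9: tcAATAAAgcacgcagttatgttacaaaaa
FHIT, chr3:59749306-59749335, minus strand, pileup 5: tgATTAAActtccttctctgctgcaaccct
In these 5 peaks the signal began 28, 23, 30, 29 and 23 bases before the edge, in the order shown. The 10 bases past the edge held 2, 0, 0, 2 and 1 A.

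The intronic peaks had a different base content. Of 593 intronic peaks, 476 were A-rich at the sense edge (80.3%, 76.9% to 83.3%), and 145 had 10 A of 10 (24.5%). At the other edge, read on the opposite strand, 33 were A-rich (5.56%, 3.99% to 7.71%). The mean A content of the 10 bases was 77.6% past the sense edge and 28.8% past the other edge. Intronic peaks of the other long genes were A-rich in 75.1% (74.4% to 75.7%) at the sense edge, 5.202 percentage points less than in the 10 genes (95% Newcombe interval 1.75 to 8.28), and in 3.83% at the other edge. With the peaks in other annotated genes left out, the share in the 10 genes was 83.2%. The share of such peaks that arose from priming at encoded adenines was not tested.

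**Figure D2:**
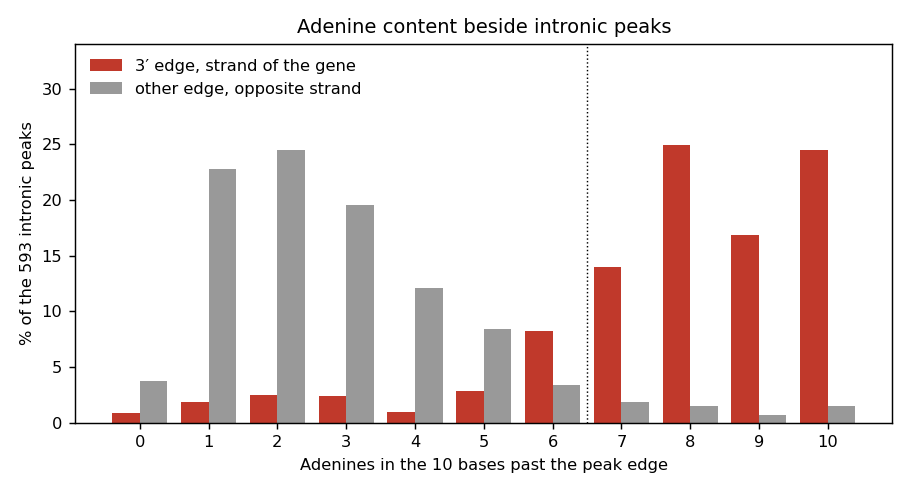
Percent of the 593 intronic peaks (vertical axis) by the number of A in the 10 bases past the peak edge (horizontal axis). Red bars are the sense edge on the strand of the gene, grey bars the other edge on the opposite strand, and the dotted line marks the threshold of 7 A. Most sense edges lie right of the line (80.3%) and few of the other edges do (5.56%).

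The A-rich share was high in each of the 6 genes with many peaks and lower in 3 of the 4 sparse ones. It was 90.9% of 132 intronic peaks in WWOX, 87.2% of 86 in FHIT, 86.9% of 84 in CNTNAP2, 81.6% of 76 in MACROD2, 77.2% of 57 in PTPRD and 71.2% of 118 in IMMP2L. The intervals of WWOX (84.8% to 94.7%) and IMMP2L (62.4% to 78.6%) did not overlap. In IMMP2L, 82 of the 107 intronic peaks outside other genes were A-rich. DLG2 had 8 A-rich peaks of 18 (44.4%, 24.6% to 66.3%), DMD 2 of 9 (22.2%, 6.32% to 54.7%) and CSMD1 1 of 4. LRP1B, also sparse, had 7 of 9. At the other edge, 3 of the 4 CSMD1 peaks were A-rich, 2 of 9 in DMD, 4 of 18 in DLG2 and 1 of 9 in LRP1B. In the 6 genes with many peaks it ranged from 0 of 86 in FHIT to 5 of 57 in PTPRD (8.77%). In CSMD1, more peaks therefore faced adenines of the opposite strand than of its own.

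The signals AATAAA and ATTAAA were not more frequent at the intronic peaks of these genes than at those of other long genes. AATAAA or ATTAAA lay 15 to 35 bases before the sense edge in 57 of 593 peaks (9.61%, 7.49% to 12.3%), and in 9.95% of 16589 in the other long genes. Among the 117 peaks that were not A-rich the share was 12.8% (7.93% to 20.1%) on the strand of the gene and 11.97% (7.26% to 19.1%) on the opposite strand. In the other long genes it was 18.8% (17.6% to 20.03%) of 4136 such peaks on the strand of the gene, with an overlapping interval. With peaks in other annotated genes left out these shares were 15.1% and 8.60% of 93. By a wider measure, any of the 12 signal hexamers listed in the paper within 100 bases upstream, 46.2% of the 593 intronic peaks had a match. The share with a match was 43.1% of the A-rich and 59.0% of the other intronic peaks, and 93.75% of the 16 peaks at transcript ends. This wider measure was not counted on the opposite strand or away from peaks. Its background rate is therefore unknown, and a match does not show a used signal. Neither edge was A-rich in 91 peaks (15.3%), whose median pileup of 7 equalled that of the 469 peaks that were A-rich at the sense edge alone. A −log10 q-value of 20 or more was reached by 12 peaks, all of them intronic. Of these, 5 lay in or at the end of LRRN3, FLRT3, TBCAP1 or RN7SL5P, genes within the bodies that are described below, and none of the 5 was A-rich on the strand of the long gene. These genes lie on the opposite strand, at whose edge 1 of the 5 peaks, in LRRN3, was A-rich. Of the other 7, 5 were A-rich (71.4%, 35.9% to 91.8%), a share whose interval included that of all intronic peaks.

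Outside other annotated genes, the intronic peak with AATAAA 15 to 35 bases before the edge and fewer than 7 A past it that had the highest pileup is shown, with the signal in capitals.
DLG2, chr11:85019148-85019227, minus strand, intron 6, pileup 16: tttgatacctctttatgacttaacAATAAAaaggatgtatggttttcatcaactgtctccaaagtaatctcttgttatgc
The DLG2 peak lay 609 kb from the start of the gene and had 2 A past its edge. It exceeded the terminal peak of DLG2, which had a pileup of 7.

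The A content of a peak says nothing about encoded adenines that had no peak, so all uninterrupted runs of at least 10 A in the gene bodies were also listed. On the strand of the genes there were 2703 such runs, and 289 of them (10.7%, 9.58% to 11.9%) had the sense edge of a peak within 30 bp of their start, at a median distance of 4 bp. On the opposite strand there were 3026 runs, and 15 (0.496%, 0.301% to 0.816%) had the other edge of a peak within 30 bp. The share was 21.6-fold higher on the strand of transcription (95% exact interval 12.9 to 39.0). In the other long genes these shares were 18.9% and 0.712%. Of the 593 intronic peaks, 273 (46.0%) had a sense run within 30 bp of the edge, the other A-rich peaks having shorter or interrupted runs.

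**Figure D3:**
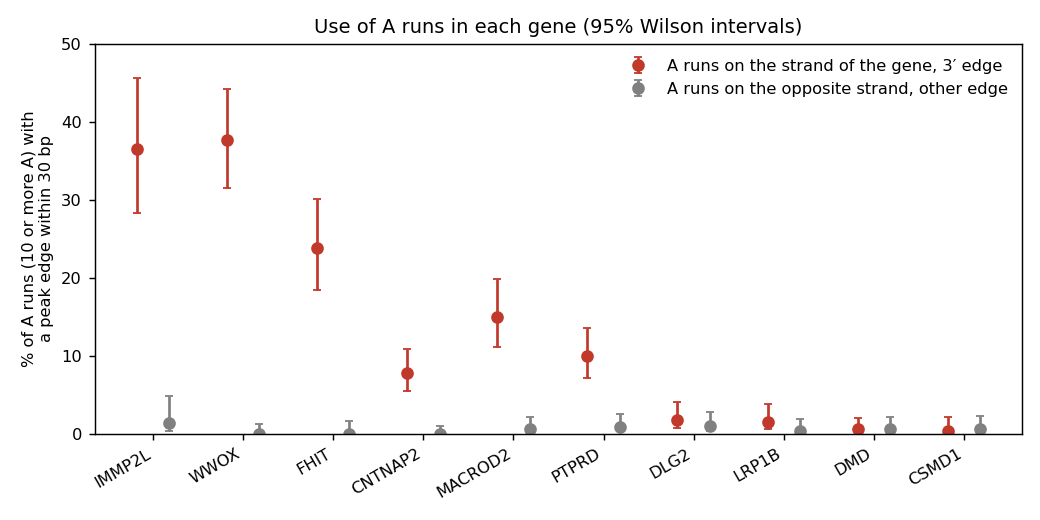
Percent of uninterrupted runs of 10 or more A in each gene that have a peak edge within 30 bp (vertical axis), with 95% Wilson intervals, for genes ordered by peaks per Mb. Red points are runs on the strand of the gene and grey points runs on the opposite strand. The red points of IMMP2L, WWOX, FHIT, CNTNAP2, MACROD2 and PTPRD lie above the grey ones without overlap of the intervals, and those of DLG2, LRP1B, DMD and CSMD1 do not.

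Runs were present in every gene, at 126 per Mb in CSMD1 to 200.3 per Mb in WWOX. The share with a peak was higher in each of the 6 genes with many peaks than in each of the 4 sparse ones. It was 37.7% of 223 sense runs in WWOX (31.6% to 44.2%), 36.5% of 115 in IMMP2L, 23.8% of 202 in FHIT, 14.9% of 261 in MACROD2, 9.91% of 343 in PTPRD and 7.73% of 388 in CNTNAP2, an order that differed from that of peaks per Mb. In the 4 sparse genes together it was 1.02% of 1171 (0.587% to 1.78%), with 5 of 288 in DLG2, 4 of 271 in LRP1B, 2 of 353 in DMD and 1 of 259 in CSMD1. For the opposite strand of these 4 genes it was 0.627% (0.318% to 1.23%), which overlapped the sense share. DMD had 157 sense runs per Mb, between IMMP2L with 128 and WWOX with 200.3. Longer runs had a peak more often: 8.11% of 950 sense runs of 10 or 11 A, 9.63% of 571 of 15 to 19 A, 19.2% of 287 of 20 to 24 A and 26.2% of 130 of 25 to 29 A. Runs of 30 A or more had one in 11.3% of 62 (5.58% to 21.5%), below the previous class but with an overlapping interval.

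Position along the gene was examined next. In the first 50% of the bodies lay 371 of the 593 intronic peaks (62.6%, 58.6% to 66.4%), against 50.4% (49.6% to 51.1%) in the other long genes, a difference of 12.2 percentage points (8.16 to 16.1). A-rich and other peaks did not differ in this, at 62.4% and 63.2%. The runs themselves were not shifted in that direction, since 45.9% of the 2703 sense runs lay in the first 50%. The share of sense runs with a peak was 16.9% (13.8% to 20.5%) in the first 20% of the bodies and 7.18% (5.34% to 9.60%) in the last 20%. This pooled figure hid opposite patterns, since the share of intronic peaks in the first 50% was 86.9% in CNTNAP2 and 82.9% in MACROD2 but 14.04% in PTPRD.

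**Figure D4:**
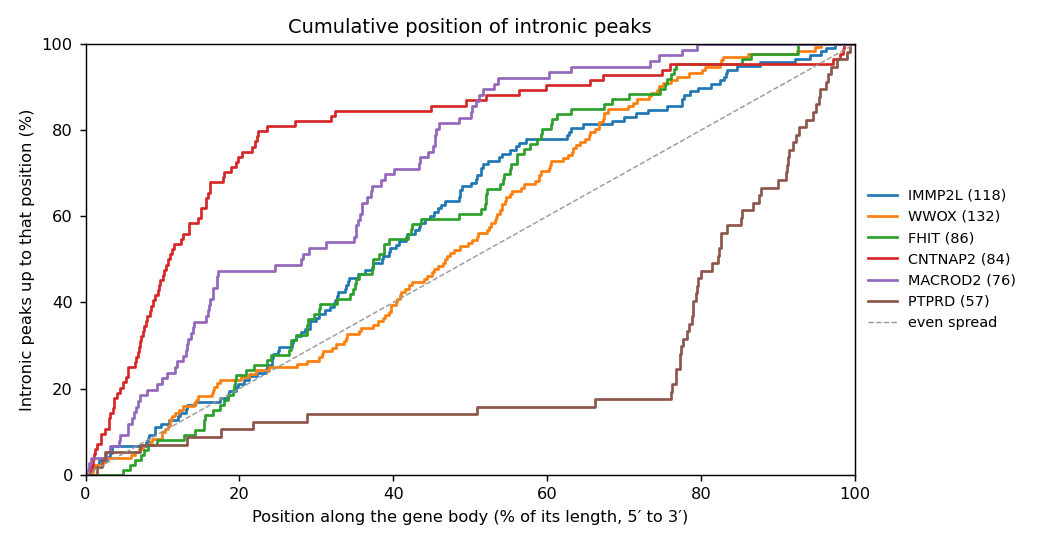
Cumulative percent of intronic peaks (vertical axis) against position along the gene body, in percent of its length (horizontal axis), for the 6 genes with more than 50 intronic peaks, whose numbers stand in parentheses. The dashed line is an even spread. The curves of CNTNAP2 and MACROD2 rise above it, that of PTPRD lies below it along most of the body and steepens after 76.4%, and those of WWOX, FHIT and IMMP2L run closer to it.

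CNTNAP2 (chr7:146116002-148420998, plus strand) had most of its peaks in its first intron. That intron spans 657 kb, 28.6% of the intron length of the canonical transcript, and held 69 of 84 intronic peaks (82.1%), or 105 per Mb (81.7 to 133). Each of the other introns held at most 3 peaks, with 9.80 per Mb (1.19 to 35.4) in intron 3 and 11.4 per Mb (2.34 to 33.2) in intron 13, for example. In steps of 10% of the body, 38 peaks fell in the first and 24 in the second, and 0 to 7 in each of the others. In the first 10% of the body, 46.4% of the sense A runs had a peak. From there the share was 21.7% and 11.9% in the next intervals of 10% and at most 7.89% in each of the others. The peaks at its 3′ end, with pileups of 19, 11 and 14, lay 5223, 4348 and 60 bp before the last base of the gene.

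MACROD2 (chr20:13995369-16053197, plus strand) showed a decline further along. Introns 3 and 5, of 408 and 545 kb, held 30 and 29 of its 76 intronic peaks, with 73.6 (49.6 to 105) and 53.2 (35.6 to 76.4) per Mb. An annotated coding transcript starts 1201 kb into the gene, at 58.4% of the body. Before it there were 70 intronic peaks, or 58.3 per Mb (45.4 to 73.6), and after it 6, or 7.01 per Mb (2.57 to 15.3). Without the peaks in or at the end of other genes there were 55 before it, or 45.8 per Mb (34.5 to 59.6), and again 6 after it. The share of sense A runs with a peak was 23.5% of 149 before and 3.57% of 112 after this point. No intronic peak lay in the last 20% of the body, although a peak with a pileup of 9 stood at an annotated transcript end there, 3197 bp before the last base of the gene.

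PTPRD (chr9:8314246-10613002, minus strand) had the opposite arrangement. It has annotated coding transcripts that start inside the gene, the first of them 1755 kb from the 5′ end of the body, at 76.4%. Upstream of that start there were 12 intronic peaks in 1.76 Mb, or 6.84 per Mb (3.53 to 11.9). Downstream there were 45 in 0.544 Mb, or 82.8 per Mb (60.4 to 111). Without the peaks in or at the end of other genes there were 8 upstream, or 4.56 per Mb (1.97 to 8.98), and 43 downstream, or 79.1 per Mb (57.3 to 107). Of the sense A runs, 2 of 241 had a peak upstream (0.830%, 0.228% to 2.97%) and 32 of 102 downstream (31.4%, 23.2% to 40.9%). The interval of this share downstream of the internal start overlapped those of WWOX and IMMP2L, and upstream of it those of DMD and DLG2. The boundary came from the annotation by a rule used for all 10 genes (the first start of a coding transcript past 10% of the body), but it was examined with the positions of the peaks known.

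The same rule gave a start in 6 other genes. In IMMP2L, the density was 136 per Mb (86.0 to 203) before and 130 per Mb (105 to 159) after a start at 18.8% of the body. In DLG2 it was 8.08 and 8.34 per Mb on the sides of a start at 22.8%. In CNTNAP2 it was 39.6 (31.4 to 49.3) before and 13.9 (3.79 to 35.6) after a start at 87.5%, and these intervals overlapped. In DMD it was 8.17 (2.23 to 20.9) before and 2.85 (0.927 to 6.66) after a start at 21.8%, with overlapping intervals. Without the peaks in or at the end of other genes, DMD had 2 intronic peaks before this start, or 4.08 per Mb (0.494 to 14.8), and 4 after it, or 2.28 per Mb (0.622 to 5.85). LRP1B and CSMD1 had too few peaks to compare, with 1 peak each after the start.

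WWOX (chr16:78099400-79212667, plus strand) carried peaks along most of its body. Its intron 8, the last one, spans 779 kb, 70.1% of the intron length, and held 97 of 132 intronic peaks (73.5%), or 125 per Mb (101 to 152). Intron 5, of 223 kb, had 28 peaks, or 126 per Mb (83.6 to 182), the same density within error. Peaks were fewest in the last 10% of the body, with 3, and most numerous between 50% and 60% of it, with 22. The share of sense A runs with a peak lay between 16.7% and 57.9% in each step of 10% of the body, above the shares of the sparse genes as a whole.

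FHIT (chr3:59747277-61251459, minus strand) had 84 of its 86 intronic peaks in the 5 introns of 100 kb or more. Introns 3, 4 and 5 held 20, 23 and 31, at 90.9 (55.5 to 140), 80.7 (51.2 to 121) and 59.3 (40.3 to 84.2) per Mb, with overlapping intervals. The last 20% of the body held 4 intronic peaks. IMMP2L (chr7:110662644-111562517, minus strand) had 85 of 118 in intron 3, of 524 kb, at 162 per Mb (130 to 201), and 18 in intron 5, the last, at 80.8 per Mb (47.9 to 128). Intron 3 of IMMP2L contains LRRN3, and without the peaks in other genes it held 74, at 141 per Mb (111 to 177). The intervals of the introns overlapped without these peaks, and did not with them.

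The 4 sparse genes showed no concentration that their counts could resolve. DLG2 (chr11:83455012-85628335, minus strand) had 8 of 18 intronic peaks in intron 6, of 577 kb, at 13.9 per Mb (5.99 to 27.3). LRP1B (chr2:140231423-142131016, minus strand) had 3 each in introns 1 and 3. DMD (chrX:31097677-33339609, minus strand) had 4 of 9 in intron 1, of which the 2 strongest lay in or at the end of TBCAP1. Its longest intron, intron 44 with 248 kb, had 1 peak, which lay in the pseudogene NPM1P8. Outside the bodies of other genes, DMD had 7 intronic peaks, a count that still includes the peak at the end of TBCAP1. Of the 7, 2 were A-rich, in introns 55 and 63. CSMD1 (minus strand) had 1 peak each in introns 1, 6, 7 and 52 and none in its longest intron of 388 kb.

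Other genes lie within these bodies, and some of the strongest peaks belonged to their intervals. GENCODE 44 places 112 other genes over the 10 bodies, 3 of them protein-coding, and 42 of the 615 peaks (6.83%) had a summit in one. LRRN3, a neuronal leucine-rich repeat protein encoded on the opposite strand within IMMP2L, held 11 peaks with pileups of 8 to 36. The highest of them, at chr7:111125280-111125459, lay at an annotated end of LRRN3, with a signal and 3 A past the edge on the LRRN3 strand and 1 A past the edge on the IMMP2L strand. Of the 11 peaks, 6 were A-rich on the LRRN3 strand and 2 on the IMMP2L strand. It was the strongest peak within IMMP2L, ahead of the IMMP2L terminal peak with 14. FLRT3, a cell adhesion protein encoded on the opposite strand within MACROD2, held 5 peaks with pileups of 7 to 25, and its highest was the strongest peak within MACROD2. In PTPRD the strongest peak, with a pileup of 61, lay in RN7SL5P, a pseudogene of the 7SL RNA named after its value was seen. RN7SL5P is on the opposite strand. The peak had 0 A of 10 past the edge on the PTPRD strand and 3 past the edge on the RN7SL5P strand. The mapping settings in the paper allowed reads with several positions, and whether reads of this peak also map elsewhere was not tested. In WWOX, the lncRNA ENSG00000276007 on the same strand had a peak with a pileup of 17 at its end, 24.9 kb from the start of WWOX.

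Smaller numbers of peaks stood at the ends of further genes within these bodies. Peaks with pileups of 5 to 13 lay at ends of RPS3P1, RPS10P2 and ENSG00000289572 within MACROD2, of RPS26P3, PTPRD-AS1 and ENSG00000212695 within PTPRD, of ENSG00000243621 within IMMP2L, and of WWOX-AS1 and ENSG00000280274 within WWOX. On the strand of the long gene, the peaks at RPS10P2, ENSG00000289572, ENSG00000243621, WWOX-AS1 and ENSG00000280274 were A-rich, with 7 to 10 A. The stronger peak at ENSG00000212695 had 8 A. Those at RPS3P1, RPS26P3 and PTPRD-AS1 had 6, 2 and 1 A. The weaker peak at ENSG00000212695 had 2 A there and 8 A past its other edge. The list carries no strand, so a peak in overlapping genes could not be assigned to one of them. In DLG2, the strongest peak, printed above with a pileup of 26, was in no other gene. It had 2 A past the sense edge and 4 past the other edge, and no AATAAA or ATTAAA at 15 to 35 bases on either strand.

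The base content of the bodies was compared because U1 snRNP, which binds 5′ splice site motifs, suppresses poly(A) signals nearby. GC content ranged from 34.8% in LRP1B to 42.6% in WWOX, with a median of 38.2% in the 323 long genes. Per kb, the U1 motifs GGTGAG and GGTAAG together with GTGAGT, which can overlap the first, counted on the strand of the gene, numbered 0.475 in LRP1B to 0.694 in WWOX, and AATAAA 0.855 in WWOX to 1.505 in LRP1B. AATAAA was denser than the median of the long genes (1.15 per kb) in 8 of the 10 genes, all but WWOX and FHIT. The ratio of U1 motifs to AATAAA was highest in WWOX, at 0.812, then 0.577 in FHIT, 0.521 in MACROD2, 0.508 in CSMD1, 0.477 in IMMP2L, 0.442 in DLG2, 0.397 in CNTNAP2, 0.386 in DMD, 0.351 in PTPRD and 0.316 in LRP1B. The median of the long genes was 0.525.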

How the data were processed

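Poly(A) 3′-seq libraries (QuantSeq REV) of IMR-32 cells were analysed from 1 peak list. The authors mapped reads to GRCh38 with STAR 2.5.1b, downsampled and pooled all libraries, and called peaks with MACS2 2.1.1 with reads extended to 100 bp. The paper also describes a later filter, which removed peaks that had a genomic stretch of A downstream and no signal motif. Peaks of that kind were still in the list used here. Of the 593 intronic peaks, 73 (12.3%) had such a stretch, with or without a motif. Each fold deposited by the authors is a ratio of summit pileup to local background, and the deposited p-value and q-value are −log10 values of that comparison. Whole pileups were computed from fold and p-value, with a largest misfit of 0.000168 in −log10 p. Summits were placed on GENCODE 44 bodies in the order transcript end, exon, intron, and introns were numbered on the canonical transcript. The gene list, comparison list and measures were chosen with earlier results of these data known. The rule named all 10 genes, genes at whose ends a peak lay, and the 3 densest and 3 sparsest of the comparison list. Of the items so named, 1 gene and some sequences are not reported here. The markers of sympathetic neuroblasts and the internal starts were added later. Shares have Wilson, rates exact Poisson and differences Newcombe 95% intervals. No hypothesis test was made, since no replicate values exist in the list. The steps were tested on simulated data. Python 3.11.15, numpy 2.4.6, scipy 1.17.1, pandas 2.3.3 and statsmodels 0.14.6 were used. Alternatives changed the q-value limit, windows, A threshold, run length, transcripts and treatment of other genes.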

Additional observations from a re-analysis of the deposited data

How the results depend on the processing

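No paired analysis was possible because all libraries were merged before peaks were called, and for the same reason no replicate could be left out. Depth per library is unknown, and the lowest pileup called was 4, so weaker sites were not detectable. A −log10 q-value limit of 5 left 397 of 615 peaks (21.4 per Mb) and 7.33% of sense A runs with a peak. A limit of 20 left 12 peaks (0.647 per Mb), of which 100% were intronic, 41.7% A-rich and 75% in the first 50% of the body. The A-rich share was 88.5% with at least 6 A, 66.3% with at least 8, 69.0% with 14 of 20, and 4.05% when counted from the summit, which lies upstream of the edge by construction. The first-50% share was 58.5% without CNTNAP2 and 67.7% without PTPRD, 2 alternatives chosen after seeing the data, as was weighting the genes equally, which gave 43.8 peaks per Mb. Runs of at least 8 A had a peak in 6.95% and runs of at least 12 A in 12.1%, against 0.382% and 0.576% on the opposite strand. Every other alternative that was run kept its percentage or rate within the 95% interval of the reported value, or its count within 1.5 times.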
